A study of Gallus gallus with 3 samples.

Results

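The 10 SOX transcription factor genes *SOX2*, *SOX3*, *SOX4*, *SOX5*, *SOX6*, *SOX8*, *SOX9*, *SOX10*, *SOX11* and *SOX21* were followed through 3 RNA libraries of the chicken embryo inner ear. They were chosen by symbol among 30108 Ensembl genes, and all 10 matched a single gene identifier. The libraries came from the vestibular apparatus of Isa Brown embryos of both sexes, with no treatment named in the labels beyond dissection and, for the cells, recording. One was the aspirated cytoplasm of a vestibular type I hair cell taken at E20 and one that of a vestibular type II hair cell taken at E19, each cell having been typed by patch clamp in the semicircular canal crista. The third was whole ampullary crista at E16, pooled from 22 embryos. Each condition had 1 library, so that the values below have no replicate and no test between libraries was made. The cells and the crista were prepared with different SMART-Seq kits and sequenced as single and as paired reads. Cell type, age, input, library kit, read layout and cell makeup cannot be told apart.

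SOX proteins bind DNA through an HMG box and act with partner factors to set and hold cell fates. They fall into subgroups by sequence. The SOXB1 members *SOX2* and *SOX3* keep progenitors undifferentiated, and *SOX2* is needed in the mouse for the sensory patches of the inner ear to form. *SOX21*, of SOXB2, represses and opposes SOXB1 in the neural tube. The SOXC members *SOX4* and *SOX11* are activators in young neurons and, in the mouse, take part in hair cell formation. The SOXD proteins *SOX5* and *SOX6* have no activation domain of their own and assist *SOX9* in cartilage. The SOXE members *SOX8*, *SOX9* and *SOX10* act in the neural crest, in glia and in the otic vesicle.

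The libraries held 10779664 (type I), 11943061 (type II) and 67428006 (whole crista) estimated reads, with 2340, 2381 and 18001 genes at 1 read or more. A gene without a read is limited to 3 reads of the total. This is 0.278, 0.251 and 0.0445 CPM (reads scaled to the library total) in the type I cell, type II cell and crista. Bounds given below as fold values set the crista CPM against this hair cell limit, without the crista's own interval. The exact 95% interval of 0 reads reaches 3.69 reads, so these bounds are approximate. Intervals in parentheses are exact Poisson 95% intervals of the rounded reads and, like these limits, cover counting error only, since PCR copies were not marked and are not separate molecules. The hair cell libraries were closely alike. With 100 reads or more in 1 cell as the threshold, 1401 genes were found, each of these 1401 was also read in the other cell, and the CPM of 96.9% differed by no more than 2-fold. Genes used by every cell were missing from both, among them *HPRT1*, *TBP*, *SDHA* and *YWHAZ*, so that a transcript with 0 reads may still have been present in the living cell.

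All 10 SOX genes were read in the whole crista, where 59.8% of all genes had at least 1 read. The members were chosen by symbol, and of genes with a symbol 85.5% were read there. Of the 10 SOX genes, 4 had at least 10 reads in both hair cells, namely *SOX4*, *SOX9*, *SOX10* and *SOX8*. The crista had 10 or more reads of 16157 genes, of which 10.4% reached 10 reads in both hair cells, so 4 of 10 was above that background. The SOX genes were, however, chosen with earlier results of these data known, 10 genes are few and the share was not tested. By the lower threshold of 1 read, 5 members were detected in the type I cell and 4 in the type II cell. The fifth was *SOX11*, with 1 read. Of all genes, 7.77% and 7.91% were detected at this threshold. All 10 members had at least 10 crista reads, and of genes with as many 13.6% and 13.8% were detected. The remaining members, *SOX2*, *SOX3*, *SOX5*, *SOX6* and *SOX21*, had no read in either hair cell. The members therefore split into 4 that reached 10 reads, the same 4 in each cell, and 5 without a read. *SOX11* was in neither set. This split was not particular to SOX genes. Of all genes that the crista read 10 times or more, 84.6% were unread in both cells and 10.4% reached 10 reads in both. The type I cell read 1771 genes 10 times or more, and 1687 of them reached 10 reads in the type II cell too.

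Summed over the members, the level was 1521 TPM (transcript abundance scaled by effective gene length within a library) in the type I cell, 1274 TPM in the type II cell and 377 TPM in the crista. *SOX4* alone held 1229, 1004 and 27.0 TPM of these sums, and without it the hair cell sums would lie below that of the crista. SOXC made up 80.8% of the sum in the type I cell and 78.8% in the type II cell, and SOXE the remaining 19.2% and 21.2%. By share of reads, which takes no length into account, SOXE made up 37.3% and 40.6%, and SOXC was still the larger with 62.7% and 59.4%. In the crista the order was turned, with 67.4% for SOXE, 18.1% for SOXC, 9.37% for SOXD, 4.98% for SOXB1 and 0.123% for SOXB2. SOXC was all but *SOX4* alone in the hair cells, whereas in the crista *SOX11*, with 41.3 TPM, made up more of it than *SOX4*. In bulk tissue, fewer cells of a type and less RNA per cell cannot be told apart.

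**Figure D1:**
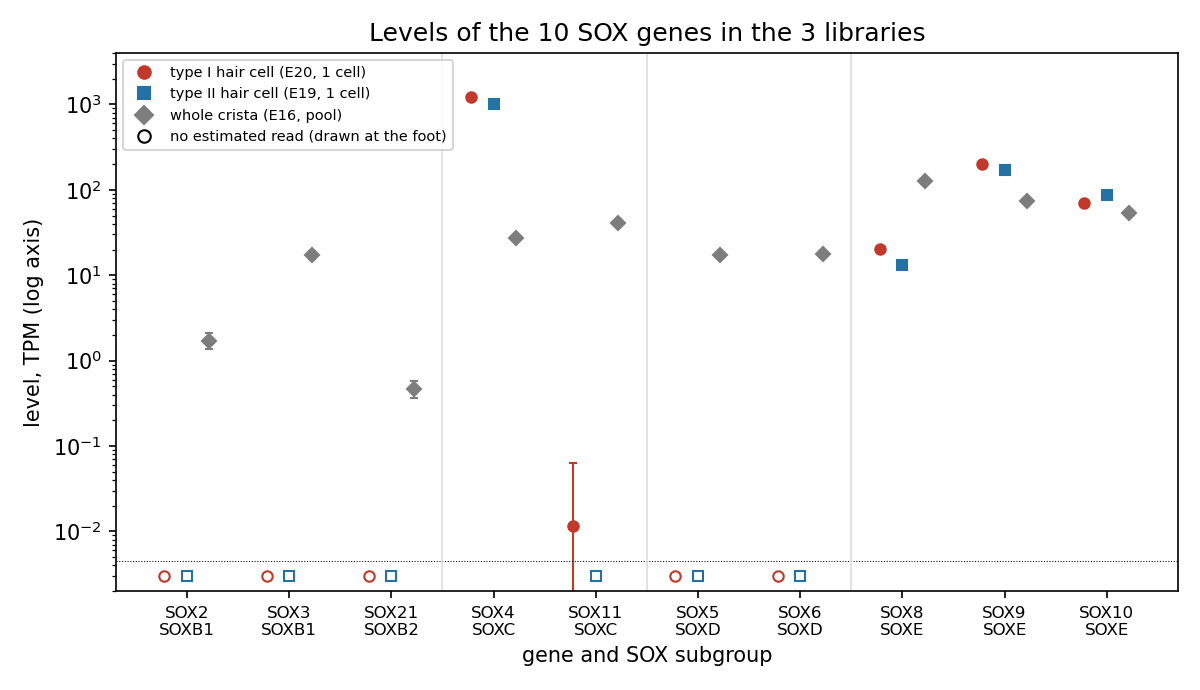
Level in TPM (log axis) of each SOX gene, grouped by subgroup, in the type I cell (red circles), the type II cell (blue squares) and the whole crista (grey diamonds), with exact Poisson 95% intervals of the reads. Open symbols under the dotted line stand for no estimated read. *SOX4* stands at 1229 and 1004 TPM in the hair cells against 27.0 TPM in the crista, and the SOXB and SOXD genes have reads in the crista only.

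*SOX4* (ENSGALG00010008146, GRCg7b chromosome 2, 58615032 to 58616520) was the most abundant SOX gene of both hair cells. It had 15121 estimated reads in the type I cell (14881 to 15364), 12638 in the type II cell (12419 to 12860) and 1655 in the crista (1576 to 1737). In TPM these were 1229, 1004 and 27.0, and the gene ranked 171st of all genes in the type I, 223rd in the type II and 5298th in the crista library. The hair cells were thus high and the tissue low. The ratio to the crista was 45.6 for the type I cell (counting interval 43.3 to 48.0) and 37.2 for the type II cell (35.4 to 39.2). Only 4.11% of 1751 genes had a type I ratio at least as high, and 5.13% of 1696 genes a type II ratio. The quantifier gave *SOX4* an effective length, the length open to reads after correction, of 49.5%, 47.4% and 55.8% of its length in the 3 libraries. The median gene with at least 10 reads had 88.9%, 86.6% and 84.5%, so its TPM is raised over its reads per base more than that of the median gene.

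*SOX11* (ENSGALG00010003543, chromosome 3, 94225208 to 94226773), the other SOXC gene, took the opposite course. It had 1 read in the type I cell (0.0253 to 5.57), none in the type II cell and 4093 in the crista (3969 to 4220), or 41.3 TPM. Scaled to the depth of the hair cell libraries, the crista reads would have been 654 and 725. On the single type I read, the crista was 654-fold higher in CPM (counting interval 117 to 25851.5) and 3604-fold higher in TPM (646 to 142359). The effective length of *SOX11* was 9339 bases in the type I cell and 2395 in the crista. This TPM ratio also carries that difference in length. In CPM the crista was 242-fold above the type II limit of 3 reads. In the crista TPM *SOX11* exceeded *SOX4* by 1.53 (1.45 to 1.62), but per kb of the deposited gene length the ratio was 0.687, on the other side of 1. The deposited length of *SOX11* is 9582 bases, whereas the quantifier used 3577 in the crista, so the order of this pair within the tissue depends on the length used. Their reads in the hair cells were not recounted under another model.

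The 3 SOXE genes were all read in both hair cells, in an order other than that of the crista. *SOX9* (ENSGALG00010029771, chromosome 18, 9420966 to 9425462), the master factor of cartilage and an early otic factor, had 5858 reads in the type I cell (5709 to 6010), 5148 in the type II cell (5008 to 5291) and 9464 in the crista (9274 to 9657). These equal 201, 170 and 74.8 TPM, with both hair cells above the tissue. The TPM ratio to the crista was 2.69 (2.60 to 2.78) for the type I cell and 2.27 (2.19 to 2.35) for the type II cell. On CPM it was 3.87 and 3.07.

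*SOX10* (ENSGALG00010010407, chromosome 1, 51095091 to 51104261), which drives Schwann cell and melanocyte programmes and is also made in the otic epithelium, had 2612 reads in the type I cell (2513 to 2714), 3120 in the type II cell (3011 to 3231) and 9020 in the crista (8835 to 9208). Its level was 70.8, 86.7 and 52.9 TPM, the narrowest range of the 4 genes read in all 3 libraries. The TPM ratios to the crista were 1.34 (1.28 to 1.40) and 1.64 (1.57 to 1.71), below 2-fold in either cell. On CPM they were 1.81 and 1.95, and the interval of the latter, 1.87 to 2.03, included 2.

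*SOX8* (ENSGALG00010017127, chromosome 14, 5752775 to 5756478), a relative that overlaps with *SOX9* and *SOX10* in neural crest and glia, was the highest member in the crista and the lowest of the 4 in the hair cells. It had 514 reads in the type I cell (471 to 560.4), 358 in the type II cell (322 to 397) and 13687 in the crista (13459 to 13918), or 20.1, 13.4 and 127 TPM. In TPM the crista was 6.30-fold higher than the type I cell (5.77 to 6.90) and 9.49-fold higher than the type II cell (8.54 to 10.6). On CPM it was 4.26-fold and 6.77-fold higher.

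Within a library, TPM of *SOX9* exceeded *SOX8* 10.004-fold in the type I cell (9.14 to 10.97) and 12.7-fold in the type II cell (11.4 to 14.2), whereas in the crista *SOX8* exceeded *SOX9* 1.69-fold (1.65 to 1.74). *SOX10* likewise exceeded *SOX8* 3.53-fold in the type I cell (3.21 to 3.88) and 6.49-fold in the type II cell (5.82 to 7.26), and *SOX8* exceeded *SOX10* 2.39-fold in the crista (2.33 to 2.46). The turned order held per kb of the deposited gene length, where *SOX8* was 1.59-fold above *SOX9* in the crista and *SOX9* was 10.3-fold and 13.05-fold above *SOX8* in the hair cells. *SOX9* was above *SOX10* in all 3 libraries, by 2.84, 1.96 and 1.41.

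**Figure D2:**
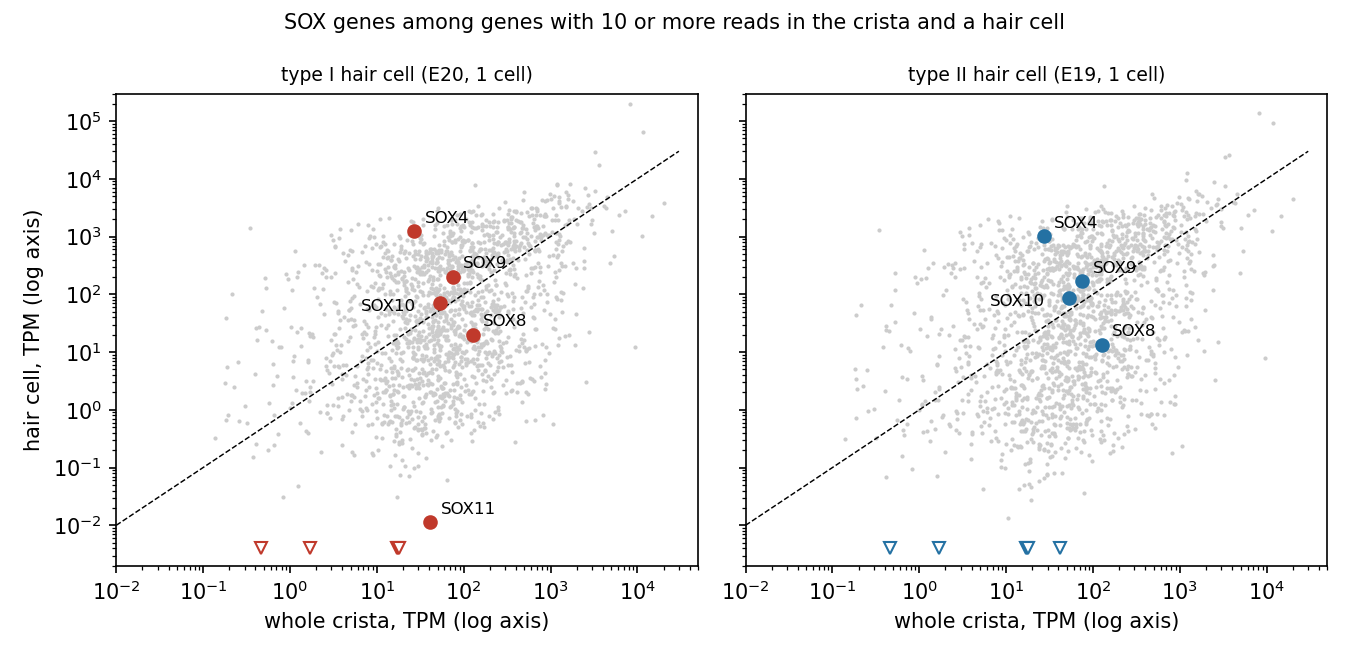
TPM in the type I (left) and type II cell (right) against TPM in the whole crista, both on log axes, with equal levels on the dashed line. Grey points are genes with at least 10 reads in the crista and in at least 1 hair cell, filled circles are SOX genes with a read and open triangles at the foot those without. *SOX4*, *SOX9* and *SOX10* lie above the line and *SOX8* below it in both panels.

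Where both libraries had 10 reads or more, 38% of genes were at least 2-fold higher in TPM in the type I cell than in the crista and 42.3% at least 2-fold lower. The shares for the type II cell were 39.1% and 41.8%. Of the 4 members read in all libraries, *SOX4* and *SOX9* were at least 2-fold higher, *SOX8* was at least 2-fold lower and *SOX10* was within 2-fold, in either hair cell, which is near this background. The median log2 ratio of these 4 genes was 0.92 in the type I cell and 0.95 in the type II cell, beside -0.12 and -0.11 over all genes compared. These medians hold only genes that reached 10 reads in the hair cell. The members left out were all lower in CPM in the cells than in the crista, so the medians do not describe the 10 SOX genes as a set. With CPM in place of TPM the median over all genes moved to 0.44 and 0.33 and that of the 4 members to 1.40 and 1.29. Both hair cells were set against the same crista library, so their ratios are not independent of each other.

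The SOXB genes took the last 3 places in crista TPM, with *SOX3* not apart from *SOX5* by counting error, and had no read in the hair cells. *SOX2* (ENSGALG00010016609, chromosome 9, 16567995 to 16570458) had 90 reads there (72.4 to 110.6), equal to 1.70 TPM, and 0 reads in each hair cell. At the depth of the hair cells the same share would have given 14.4 reads at the type I and 15.9 at the type II depth. On CPM the bounds were 4.80-fold and 5.32-fold. The paper lists the *SOX2* transcript as found in both hair cells, which the counts used here do not show. *SOX3* (ENSGALG00010015073, chromosome 4, 10462912 to 10464775) had 349 reads (313 to 388) or 17.1 TPM in the crista, and 0 and 0 in the hair cells, with bounds of 18.6-fold and 20.6-fold. In the crista TPM *SOX3* stood 10.04-fold above *SOX2* (7.95 to 12.8) and per kb of deposited gene length 7.10-fold. The deposited *SOX3* model has 948 bases, shorter than the 1864 bases that RefSeq gives the gene, and how reads beyond the model were counted was not examined. *SOX21* (ENSGALG00010006075, chromosome 1, 146411670 to 146413334) had 78 reads (61.7 to 97.3), or 0.466 TPM, in the crista and none in the cells. Its bounds were 4.16-fold and 4.61-fold.

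The SOXD genes stood together in the crista. *SOX6* (ENSGALG00010023131, chromosome 5, 10772986 to 11177732) had 2760 reads (2658 to 2865) and *SOX5* (ENSGALG00010014120, chromosome 1, 65588747 to 66230345) had 2048 (1960 to 2139), and both had 0 in the type I cell and 0 in the type II cell. Their crista levels were 17.9 TPM (17.2 to 18.6) and 17.5 TPM (16.7 to 18.2). At hair cell depth these shares would have given 441 and 489 reads of *SOX6* and 327 and 363 of *SOX5*. On CPM the bounds were thus 147-fold and 163-fold for *SOX6* and 109-fold and 121-fold for *SOX5*. In the RefSeq annotation 4 other genes overlap *SOX5*, 1 overlaps *SOX6* and 1 overlaps *SOX2*, and whether the counting used strand is not given in the sources used here. No other RefSeq gene overlaps the RefSeq span of the remaining 7 members, and overlap over the deposited models, which are longer for some, was not checked.

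Ordered by crista TPM, the members ran *SOX8*, *SOX9*, *SOX10*, *SOX11*, *SOX4*, *SOX6*, *SOX5*, *SOX3*, *SOX2* and *SOX21*. The counting intervals of neighbours in this order were apart except for *SOX6* with *SOX5* and *SOX5* with *SOX3*, whose 17.9, 17.5 and 17.1 TPM could not be told apart. In this order *SOX11*, all but unread in the hair cells, stood at place 4, above *SOX4*. Per kb of the deposited gene length *SOX4* stood at place 4 and *SOX11* at place 7. On this scale the first 4 members of the crista were the 4 that reached 10 reads in each hair cell. No read in either hair cell was the commonest outcome, shared by 13666 or 84.6% of the genes that the crista read 10 times or more, and the unread members are 5 of these genes.

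Between the hair cells, the 4 members that reached 10 reads in each stood less than 2-fold apart. The type I to type II TPM ratio was 1.22 for *SOX4* (counting interval 1.20 to 1.25), 1.18 for *SOX9* (1.14 to 1.23), 1.50 for *SOX8* (1.31 to 1.73) and 0.817 for *SOX10* (0.776 to 0.861). *SOX10* was therefore the only one of the 4 with a higher level in the type II cell, and its ratio on CPM was 0.927 (0.880 to 0.977). Such ratios were common, with all but 6.99% of 1687 genes that each cell read 10 times or more being within 2-fold. An SD of 0.31 was found for the log2 ratios of 879 genes read 1000 times or more in each cell, and those of *SOX4*, *SOX9* and *SOX10* were 0.29, 0.24 and -0.29. That of *SOX8* was 0.59, and 17.0% of genes had a ratio at least as high. The counting intervals are narrower than this spread, and with 1 cell of each type no difference between the types can be drawn from them.

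**Figure D3:**
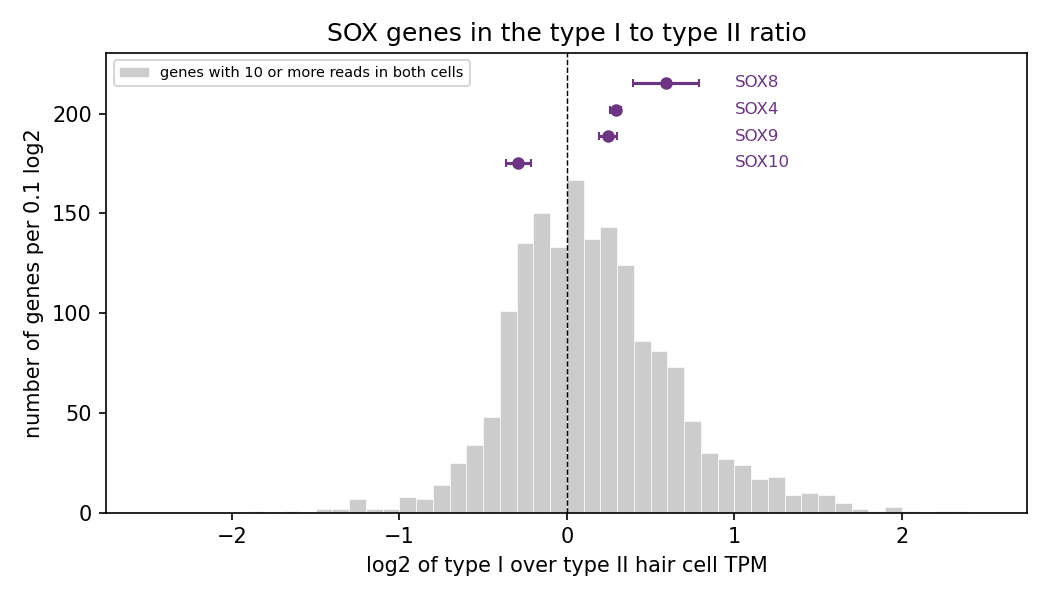
Number of genes per 0.1 of the log2 ratio of type I to type II cell TPM, for 1687 genes read 10 times or more in each cell (grey bars), with the ratios of the 4 SOX genes and their 95% counting intervals above. All 4 fall within the body of the distribution, with *SOX10* alone to the left of 0.

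Partner and target genes of the SOX factors were read from lists. For this and the later lists, the background is the genes with at least 10 reads in the crista. Of these, 13.6% had a read in the type I cell and 13.8% in the type II cell. Of 17 genes listed as *SOX2* partners or prosensory genes, 16 were read in the crista and 4 in each hair cell. *PAX2*, a paired box factor of the otic vesicle, had a pattern of the *SOX4* kind, with 518 TPM in the type I cell and 773 TPM in the type II cell against 4.04 TPM in the crista. *CHD7*, a chromatin remodeller that partners SOX2, stood at 3.41, 2.10 and 9.51 TPM. The most abundant of the list in the crista, *EYA1* with 85.3 TPM and *LFNG* with 80.9 TPM, had 0 and 1 read in the type I cell and none in the type II cell. None of the 8 listed hair cell transcription factors, *GFI1*, *POU4F3* and *ATOH1* among them, had a read in either hair cell, and *RFX3* and *GFI1* led the list in the crista with 27.2 and 26.0 TPM.

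Of 10 cartilage genes matched by symbol and regulated by *SOX9* with *SOX5* and *SOX6*, 4 were read in each hair cell, all with many reads, and 10 in the crista. They encode chains of collagens IX and XI. *COL9A1* stood at 440 TPM in the type I, 426 TPM in the type II cell and 1199 TPM in the crista, and *COL11A1* at 227, 291 and 387 TPM. *COL9A2* stood at 263, 187 and 116 TPM and *COL9A3* at 45.9, 32.7 and 977 TPM. Among the other genes of this list, *ACAN*, *HAPLN1*, *MATN1* and *MATN3* had 0 reads in both hair cells. *CNMD*, also listed, had no match by symbol and is not in these counts. Its earlier symbol *LECT1* is among the genes read, at 386, 281 and 312 TPM in the type I cell, type II cell and crista. Of the 13 Schwann cell targets of *SOX10*, 1 was read in each hair cell and 13 in the crista. The myelin genes *MBP* and *PMP22*, at 1702 and 1292 TPM in the crista, had no read in either hair cell. Of the 8 melanocyte targets, *MITF* had 16 and 21 reads in the hair cells and *TYRP1*, at 162 TPM in the crista, had none. *STMN1*, a tubulin-binding protein of growing cells, was the only 1 of 6 listed *SOX4* and *SOX11* targets read in the hair cells, at 839 and 901 TPM against 1583 TPM in the crista. *TUBB3*, with 189 TPM in the crista, and *DCX* had none.

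The labels of the cells were set against marker genes, whose part in the SOX values was not tested. Of 22 hair cell markers, 9 were read in the type I cell and 8 in the type II cell, with summed levels of 30693 and 24874 TPM against 4427 TPM in the crista. They were led by *OCM1* (29368 and 23580 TPM against 3289 TPM in the crista) and *USH1C* (860.2 and 830 TPM), with *KCNA10*, *CIB3*, *MYO6*, *TMC1*, *LOXHD1* and *CHRNA9* also at 10 reads or more. Most of the sum was *OCM1*, and the other 21 markers summed to 1325 and 1294 TPM against 1138 TPM in the crista. Most of this remainder in the cells was *USH1C*, at 97.8 TPM in the crista, and *KCNA10*, at 323 and 348 TPM against 1.45 TPM. *CIB3* and *TMC1* were above the crista in the type I cell and below it in the type II cell. *MYO6* (37.2 and 45.7 TPM against 159 TPM), *LOXHD1* and *CHRNA9* were lower in both cells than in the crista. *MYO7A*, *CALB2* and *PCDH15* had 0 reads in both. Of 12 supporting cell markers, 4 were read in each hair cell, summing to 536 and 622 TPM against 6819 TPM in the crista. *GJB6* (349 and 374 TPM) and *AGR3* (151 and 216 TPM) led them, *SLC1A3* (32.5 and 28.3 TPM) and *ZPLD1* (3.06 and 3.28 TPM, against 2557 TPM in the crista) followed, and *TECTA*, *TECTB*, *OTOA* and *GJB2* had 0 reads. Of 11 mesenchyme markers, 4 were read in each hair cell, summing to 488 and 375 TPM against 2980 TPM in the crista. The highest in the cells, *COL1A1*, stood at 397 and 307 TPM against 356 TPM in the crista. Its level was thus above the tissue in the type I cell and below it in the type II cell. *COL1A2* (82.9 and 62.2 TPM), *LUM* (6.07 and 4.57 TPM) and *POU3F4* (2.21 and 1.63 TPM) were lower in both cells than in the crista. *DCN*, *COL3A1* and *PDGFRA* had 0 reads in both cells. All 8 endothelial and all 6 red cell markers had 0 reads in the hair cells, although the crista had 22447 TPM of *HBA1*, 4599 TPM of *HBBA*, 48.2 TPM of *EGFL7* and 31.1 TPM of *PECAM1*. Of 10 neuron markers, *SNAP25* alone was read, with 4 reads in the type II cell, while *NTRK2* and *NEFL* led the list in the crista with 69.3 and 16.8 TPM. Of 9 genes used by every cell, *GAPDH*, *ACTB*, *EEF1A1*, *RPL13* and *PPIA* were read in both hair cells.

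**Figure D4:**
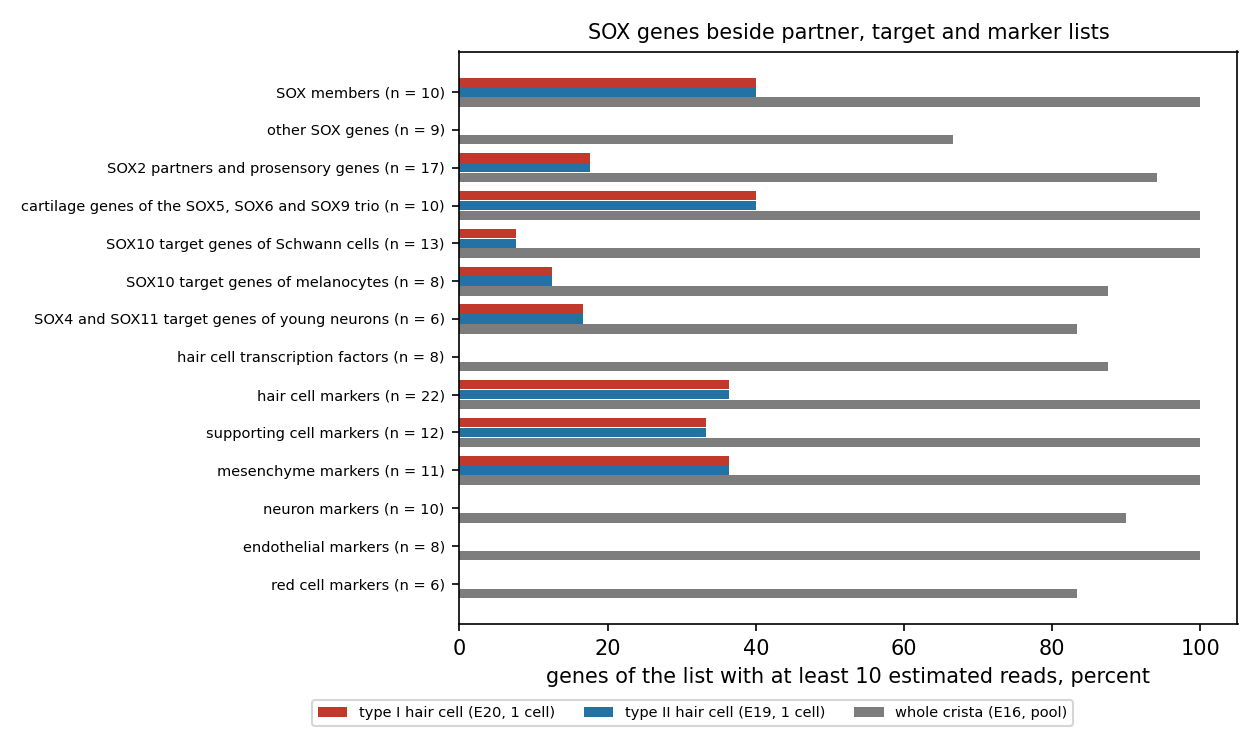
Percent of the genes of each list with at least 10 estimated reads in the type I cell (red), the type II cell (blue) and the whole crista (grey), with the number of genes matched in parentheses. The SOX genes reach 40.0% (4 of 10) in each hair cell, like the cartilage list. Close to this are the hair cell (8 of 22), mesenchyme (4 of 11) and supporting cell markers (4 of 12). The other SOX genes, the hair cell transcription factors and the neuron, endothelial and red cell markers reach 10 reads in neither cell. Of all genes with at least 10 reads in the crista, 10.4% reach 10 reads in both hair cells.

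For the 4 SOX genes with at least 10 reads in every library, the 3 genes with a symbol nearest in log2(TPM + 1) over the 3 libraries were *RILP*, *THAP8* and *CLUAP1* for *SOX4*, *HPCAL1*, *ODC* and *CYP2D6* for *SOX8*, *FAM173A*, *MRPS9* and *SLC35F1* for *SOX9*, and *PROM1*, *STEEP1* and *MSX1* for *SOX10*. The closest pair was *SOX10* and *PROM1*, at a distance of 0.08 on the log2 scale, with *PROM1* at 71.5, 89.2 and 55.6 TPM. *CLUAP1* was at 947, 846 and 31.5 TPM. For the unread members no genes were named, since 10362 genes with a symbol share their pattern.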

How the data were processed

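For each library the authors deposited estimated counts of reads per Ensembl gene, not normalized and not always whole, and TPM scaled within the library by effective length. The whole organ was processed with the Illumina DRAGEN pipeline on Ensembl GRCg7b, and for the hair cells DRAGEN is named in the submitters' processing notes. The processing notes name the genome builds GRCg7b and galGal4 without giving the role of either. Hair cell reads were single reads of 100 bases and crista reads were paired. Counts and TPM were used as they stand, without a test, since each condition has 1 library.

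Symbols came from the deposited gene table (15097 genes with a symbol) and positions from RefSeq GRCg7b. A gene with at least 1 estimated read was called detected, and ratios between libraries needed at least 10 reads in each, apart from that of *SOX11* with 1 read. Intervals are exact Poisson 95% intervals, and those of ratios are conditional on the summed reads. The SOX genes and the 13 further lists were chosen with earlier results of these data known. Named are all SOX genes and, of each list, the 2 highest in crista TPM and those with at least 10 reads in a hair cell, beside some listed genes chosen after their values were seen. *SOX15*, *SRY* and 15 other listed symbols had no match by symbol and were left out of the list counts. Some listed genes that the rule would name are not reported here. Alternatives were other thresholds, CPM, reads per kb, TPM without mitochondrial genes and genes with a symbol. Intervals came from scipy 1.17.1 under Python 3.11.15, tables from pandas 2.3.3 with numpy 2.4.6, and plots from matplotlib 3.10.9. The intervals were run on simulated Poisson counts, which checks the formula only, since such counts hold no PCR copies.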

Additional observations from a re-analysis of the deposited data

How the results depend on the processing

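The number of SOX genes detected stayed within 1.5-fold in all 16 alternatives, 4 in each hair cell from 3 reads upward, and 9 in the crista at 1 TPM, where *SOX21* was lost. In the order of crista levels, CPM put *SOX6* at place 5, *SOX5* at 6 and *SOX4* at 7. Reads per kb of deposited gene length put *SOX4* at place 4, *SOX6* at 5, *SOX5* at 6 and *SOX11* at 7. As a share of reads, the crista sum was 1.01% SOXB1, 0.180% SOXB2, 13.3% SOXC, 11.1% SOXD and 74.4% SOXE. As a share of reads per kb, SOXB1 was 3.75%, SOXB2 0.141%, SOXC 9.39%, SOXD 9.64% and SOXE 77.1%, with SOXD above SOXC on this scale. In the type I and type II cell, SOXC had 62.7% and 59.4% of reads and 71.1% and 68.3% of reads per kb, and SOXE 37.3% and 40.6% of reads and 28.9% and 31.7% of reads per kb. These hair cell shares and the marker sum without *OCM1* were added after seeing the data. Over genes with a symbol alone, 13.1% were detected in the type I cell, 13.2% in the type II cell and 85.5% in the crista. No ratio between libraries crossed 1 under any of the 39 alternatives, although 26 left their counting interval. Without mitochondrial genes the type I ratio of *SOX4* to the crista was 49.4, on CPM 57.2 and per kb 40.6. With 1 library a condition no library could be left out. Depth limits *SOX2* and *SOX21* most, whose bounds rest on 90 and 78 crista reads.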

Other observations

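The files name further SOX genes, and none had 10 reads in a hair cell. In the crista *SOX7*, *SOX17* and *SOX18*, the SOXF genes of endothelium, had 347 (311 to 386), 149 (126 to 175) and 127 (106 to 151) estimated reads, or 4.06, 7.37 and 3.30 TPM. A second identifier listed as sox17 had 22 reads, and how reads were placed between both was not examined. The type II cell had 2 reads of *SOX17* and 1 of *SOX18*, and the type I cell none. All 8 endothelial markers had 0 reads in both cells. *SOX13*, the third SOXD gene, had 63 reads in the crista (48.4 to 80.6) or 0.798 TPM, far below the 17.9 and 17.5 TPM of *SOX6* and *SOX5*. *SOX1*, the third SOXB1 gene, had 39 reads (27.7 to 53.3) or 0.748 TPM, and *SOX12*, the third SOXC gene, had 2. *SOX14* and *SOX30* had no read in any of the 3 libraries.

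The deposited and RefSeq gene models differ for several members. The deposited length was 2661 bases for *SOX4*, 4958 for *SOX21* and 9582 for *SOX11*, whereas the RefSeq genes span 1489, 1665 and 1566 bases. *SOX4* and *SOX11* thus both extend beyond their RefSeq genes.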
